A study of Mus musculus with 89 samples.

Results

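The genes described here are Tnrc6a, Tnrc6b and Tnrc6c, the Argonaute genes Ago1, Ago2 and Ago3, and Cnot10, a set of 7 among 9765 genes listed in 2 tables of exon skipping from mouse nucleus accumbens. They were picked by name, as proteins of the microRNA silencing complex, at a time when an exon of Tnrc6a and an exon of Cnot10 were already known to differ in these data. Their inclusion levels and reads are therefore given as a description and not as a test. All their listed exon skipping events were taken, 23 of 27900 in the table of the HSV experiment and 4 of 5608 in the table of the dCas9-SET2 experiment. Events were found for 6 of the 7 genes, and Ago1 had none in either table.

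A microRNA is loaded into an Argonaute protein and leads it to partly complementary messenger RNAs. Argonaute is bound by a TNRC6 protein, the mammalian GW182 family, which in turn recruits the deadenylases PAN2-PAN3 and CCR4-NOT, so that the message is shortened at its tail, translated less and decayed. CNOT10 is a non-catalytic subunit of CCR4-NOT. In neurons this machinery is known for controlling synthesis of synaptic proteins.

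The series asked how trimethylation of histone H3 at lysine 36, laid down by the methyltransferase Set2, bears on alternative splicing. Of its 89 samples, 41 were RNA samples of nucleus accumbens from wild type C57BL/6 mice of 8 weeks, and the tables belong to the experiments these came from. The HSV experiment had 3 libraries each after herpes simplex virus with Set2, with R195G or with GFP. The dCas9-SET2 experiment had a guide to SRSF11 or a non-targeting guide (NT), with dCas9-SET2 present under either guide, and 16 runs per guide under 4 sample names each. The labels describe micro-dissected tissue and name no sorting of cells, so all cell types of the region are mixed, and the labels do not say which cells the virus reached.

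Neither table names its libraries. The HSV table holds a set of 3 and a set of 2 libraries and the dCas9-SET2 table a second and a first set of 16 runs each, so no virus or guide could be assigned to a set and every difference below is between unnamed sets. Each event is defined by a skipped exon and the exons flanking it. Its inclusion level is the fraction of transcripts that keep the exon, estimated from the reads of the inclusion form and of the skipping form, each divided by the length of that form. Intervals are 95% exact binomial intervals of the read share carried over to the inclusion level, and they cover counting error only. Nothing in the labels says that the libraries came from separate animals, so the spread between them may be technical.

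The libraries held 7428974 to 8341849 reads over all events in the 3-library set and 8366275 to 8638249 in the 2-library set, and the runs 56946 to 84870 in the second and 79799 to 106251 in the first set of the dCas9-SET2 table. Cell type markers, measured in CPM (reads scaled to a common library size) over the deepest event of a gene, moved between the HSV sets. The 8 measured of 12 interferon response genes were all higher in the 3-library set, with a summed level of 2181 to 2486 against 67.0 to 129.6 in the 2-library set. Of 7 measured of 10 medium spiny neuron markers 6 were lower (2840 to 3044 against 7033 to 8761), and Drd1 and Adora2a were among those not measured. Of the glia, 5 of 6 oligodendrocyte genes (7842 to 10230 against 5990 to 7302), 4 of 6 microglia genes (1555 to 1686 against 648.7 to 1437) and 2 of 4 astrocyte genes (1730 to 1910 against 1209 to 1687) were counted as higher and none as lower. Of 4 neuron genes 2 were higher and 2 lower (5903 to 6912 against 5578 to 6524). Measured genes outside these counts were counted as neither, which does not mean equal levels. Over all 8201 genes a fit (limma, Benjamini-Hochberg adjusted p below 0.05) called 13.2% higher and 9.47% lower in the 3-library set. The sets did not overlap for 49.8% of these genes. None of the 4 vascular markers was measured. These shifts move with every HSV difference below, and their part in those differences was not tested.

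Exon usage of the scaffold gene Tnrc6a differed most. Its 147-nt exon (chromosome 7, 130323763 to 130323909, plus strand, as the HSV table gives it) had inclusion levels of 0.599, 0.611 and 0.68 in the 3-library set, against 0.214 and 0.191 in the 2-library set. The sets stood far apart and the libraries within each lay close together. Behind these levels were 71, 84 and 63 inclusion reads with 24, 27 and 15 skipping reads in the 3-library set, and 21 and 15 inclusion reads with 39 and 32 skipping reads in the 2-library set.

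The main form of the message thus kept the exon in each of the 3 libraries and left it out in each of the 2. The mean was 0.63 ± 0.043 (SD, n = 3) in the 3-library set and 0.203 ± 0.016 (SD, n = 2) in the 2-library set, a difference of 0.427. The lowest interval bound of the 3-library set, 0.482, lay above the highest of the 2-library set, 0.321. By the size of the difference the exon ranked 16 of the 7754 events with enough reads for a fit. Its length is a multiple of 3, so that leaving it out would keep a reading frame.

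**Figure D1:**
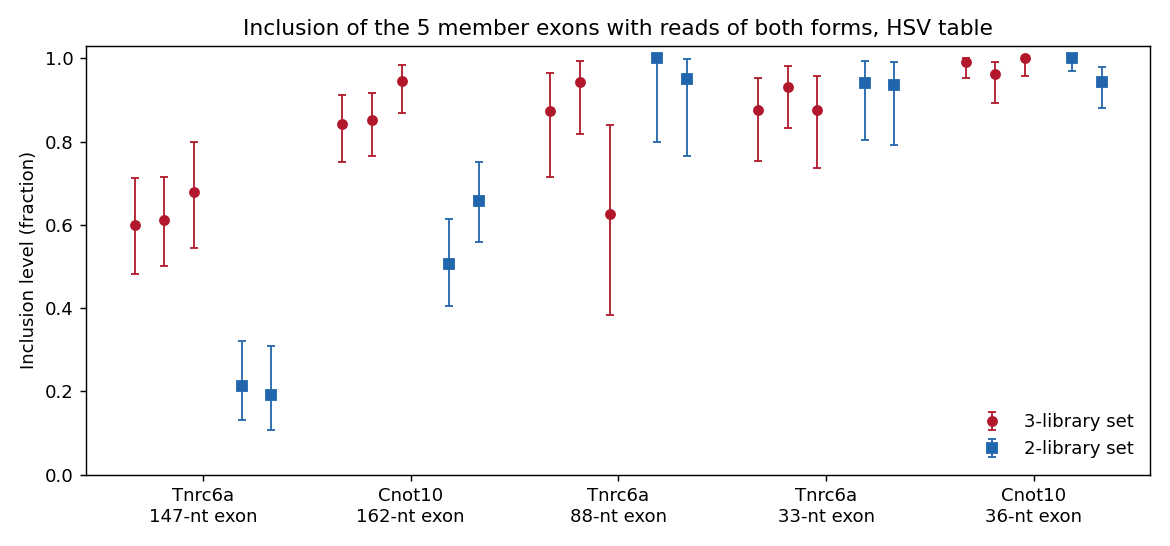
Inclusion level (fraction, y axis) of the 5 exons of Tnrc6a and Cnot10 that had enough reads of both forms, in each library of the 3-library set (red circles) and of the 2-library set (blue squares), with 95% exact binomial intervals (bars). The 147-nt exon of Tnrc6a and the 162-nt exon of Cnot10 are higher in all 3 libraries of the 3-library set, and the other exons lie near the top of the scale apart from a library at 0.627 for the 88-nt exon.

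Cnot10, the CCR4-NOT subunit, showed the other wide gap. Its 162-nt exon (chromosome 9, 114540940 to 114541101, minus strand) had inclusion levels of 0.843, 0.851 and 0.946 in the 3-library set, against 0.507 and 0.658 in the 2-library set. The sets did not overlap, but the libraries of the 2-library set lay further from each other than those of Tnrc6a. The mean was 0.88 ± 0.057 (SD, n = 3) in the 3-library set and 0.583 ± 0.106 (SD, n = 2) in the 2-library set, a difference of 0.297, which ranked 90 of 7754. Reads per library were 158, 168 and 149 in the 3-library set, against 110 and 140 in the 2-library set. This exon too is a multiple of 3 long. Dropping library 1 of the 2-library set brought the difference to 0.222, and the exon was no longer called by the fit over all events (limma, Benjamini-Hochberg adjusted p below 0.05). Dropping library 2 brought it to 0.373.

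Across the members, 5 of the 23 events had at least 20 reads per library on average and 10 reads of the rarer form, and limma called 2 of the 5, the exons above, with the 3-library set higher in each. Over all 7754 events of that depth 3.69% were called, 1.69% with the 3-library set higher. Tnrc6a and Cnot10 joined the set because of these exons, so the count carries no weight of its own. In 4 of the 5 the sets did not overlap, against 28.5% of all such events. The authors' deposited table gave an FDR below 0.05 to 3 of the 5, against 12.6% of all events of that depth. These were also the only 3 of all 23 member events, against 4.87% of all listed events. Those counts rest on the same choice of genes. Dropping the precision weights left no event called in limma among all 7754, members included. At an unadjusted p below 0.05 stood 790 events, 2 of them of members (limma).

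Besides the 147-nt exon, Tnrc6a had 2 other exons with enough reads of each form, and neither was called. An 88-nt exon upstream (130287264 to 130287351) had inclusion levels of 0.874, 0.944 and 0.627 in the 3-library set, against 1 and 0.951 in the 2-library set. Only the third library of the 3-library set stood well below the rest, with 16 inclusion and 6 skipping reads, and without it the difference of -0.161 became -0.066. This event, too, is called in the authors' deposited table, and its length is not a multiple of 3. A thinner event of the same 88-nt exon, with 10.6 reads per library, went the other way. It stood at 0.898, 1 and 1 in the 3-library set, against 1 and 0.739 in the 2-library set.

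The next exon of Tnrc6a, of 22 nt (130295678 to 130295699), was thinner in reads and showed the same library apart. Its deeper event had 35, 44 and 17 inclusion reads with 0, 0 and 5 skipping reads in the 3-library set, and 23 and 29 inclusion reads with 0 and 1 skipping reads in the 2-library set. For the deeper events of the 88-nt and the 22-nt exon the skipping junctions are different, whereas reads joining the exons to each other count toward inclusion of either. The thinner events of these exons share a skipping junction, so the same 3 skipping reads count for each.

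A 33-nt exon of Tnrc6a (130318940 to 130318972) had inclusion levels of 0.877, 0.931 and 0.876 in the 3-library set, against 0.941 and 0.937 in the 2-library set. The levels of the sets lay next to each other without overlap, and every interval overlapped the others. The difference was -0.044. In Cnot10 the 36-nt exon (114506913 to 114506948) was kept in nearly all transcripts, at 0.991, 0.962 and 1 in the 3-library set, against 1 and 0.943 in the 2-library set, and the sets overlapped.

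**Figure D2:**
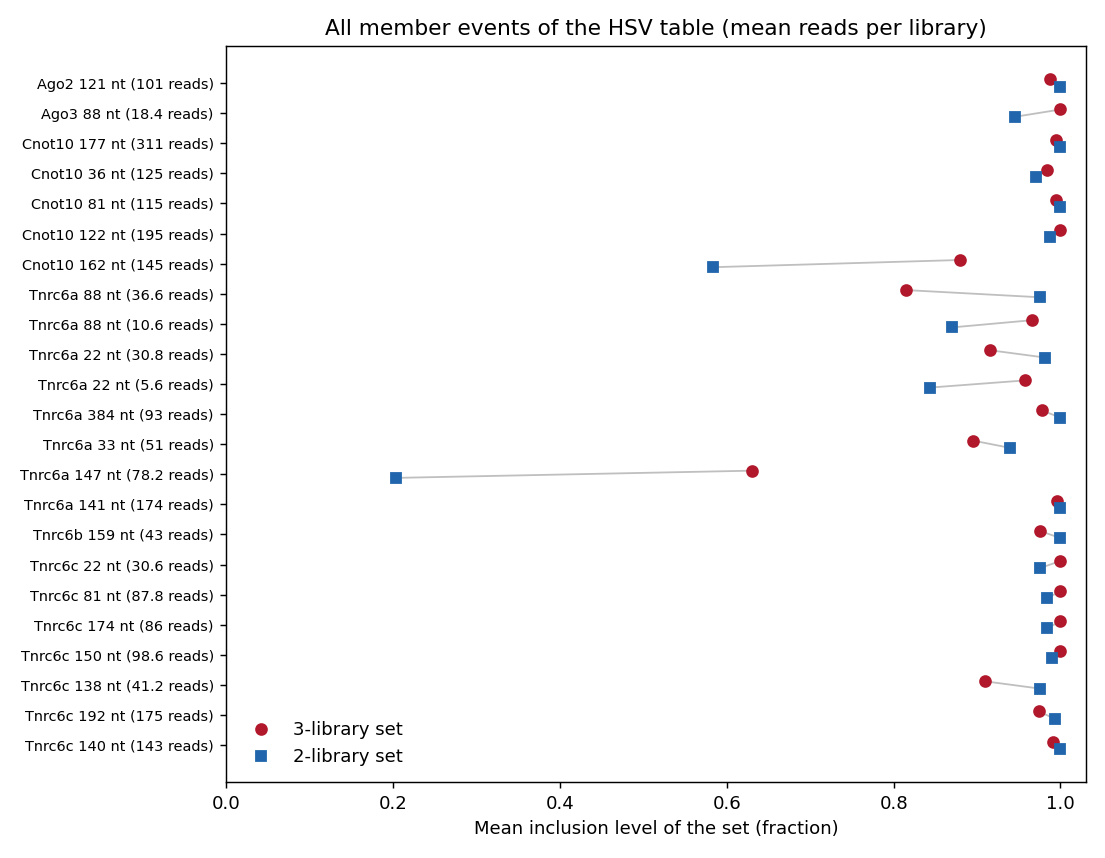
Mean inclusion level (fraction, x axis) of all 23 events of the 6 genes in the 3-library set (red circles) and the 2-library set (blue squares), with each exon's length and its mean reads per library, in rows by gene and position. Events at the right edge are exons that nearly all transcripts keep, and the 147-nt exon of Tnrc6a and the 162-nt exon of Cnot10 are the ones set apart.

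The remaining 18 events all had fewer than 10 reads of the rarer form and were not fitted. Most had levels near complete inclusion: in 13 of the 18 the mean inclusion level was at least 0.95 in both sets. In the rest a set mean was lower, down to 0.843. That value belongs to an event of the 22-nt exon of Tnrc6a with 5.6 reads per library, too few to fix a level. Its interval reached down to 0.022 in library 1 of the 2-library set. The largest difference of the 18 (0.115, with the 3-library set higher) belongs to the same event. Of all 23 events, 14 (60.9%) had set means of at least 0.95 in both sets, close to the 56.8% of all listed events.

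Tnrc6c, a paralog of Tnrc6a, had 7 events, all with high inclusion. Mean inclusion was lowest for its 138-nt exon (chromosome 11, 117604241 to 117604378), at 0.912, 0.949 and 0.868 in the 3-library set, against 0.951 and 1 in the 2-library set, from 7 skipping reads in all. A deeper 192-nt exon had 8 skipping reads in all, with means of 0.974 in the 3-library and 0.993 in the 2-library set. The Tnrc6c exons of 174 and 150 nt end at the same base, so reads of the shared downstream junction can count for both. Tnrc6b, the remaining paralog, had a 159-nt exon (chromosome 15, 80713374 to 80713532) at 1, 1 and 0.924 in the 3-library set, against 1 and 1 in the 2-library set, with 1 skipping read in all.

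Of the Argonautes, which bind the microRNA itself, Ago2 is the slicing member. Its 121-nt exon (chromosome 15, 72968423 to 72968543) had 138, 98 and 91 inclusion reads with 0, 2 and 0 skipping reads in the 3-library set, and 86 and 90 with no skipping read in the 2-library set. The 88-nt exon of Ago3 (chromosome 4, 126048983 to 126049070) had 16, 9 and 24 inclusion reads with no skipping read in the 3-library set, and 15 and 26 with 0 and 2 skipping reads in the 2-library set. Neither gene showed skipping beyond a few reads at this depth. The member events covered 21 exons of 22 to 384 nt, of which 14 (66.7%) had a length divisible by 3, against 44.1% of all 24156 exons of the table.

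Reads over the deepest event of each gene stand in for its level. In bulk tissue fewer cells of a type and less RNA per cell cannot be told apart in such levels. No member's level was called different in limma, against 22.7% of 8201 genes, and 1 of the 5 measured had an unadjusted p below 0.05, against 34.2% of all genes. Tnrc6a had 44.5, 47.1 and 58.6 CPM in the 3-library set, against 35.4 and 37.4 in the 2-library set, and the sets did not overlap, which was so for 49.8% of all genes. The log2 difference was 0.45 (SE 0.18). With the reads of all its events summed in place of the deepest, it was 0.54 (SE 0.13), and Tnrc6a was then called.

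Ago2 had 33.6, 26.9 and 24.9 CPM in the 3-library set, against 21.2 and 22.2 in the 2-library set, a log2 difference of 0.38 (SE 0.22) without overlap, and of 0.24 when library 1 of the 3-library set was dropped. Tnrc6c (37.0, 44.7 and 61.1 against 40.6 and 41.6), Tnrc6b (17.5, 11.3 and 7.12 against 8.86 and 9.61) and Cnot10 (72.8, 85.6 and 74.8 against 80.7 and 83.3) overlapped between the 3-library and the 2-library set. Their log2 differences were 0.18, 0.28 and -0.08. In the 3-library set, dropping library 1 turned the sign for Tnrc6b (-0.05) and dropping library 3 took it to 0.59, and for Tnrc6c dropping library 1 gave 0.33 and dropping library 3 turned the sign (-0.03). Ago3, with 18.4 reads per library, fell below the minimum of 20 for a level.

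Levels were also taken per kb of the inclusion form of the deepest listed event. Cnot10 was the highest at 238 ± 21.1 CPM (SD, n = 3) in the 3-library set and 251 ± 5.42 (SD, n = 2) in the 2-library set. Tnrc6a followed at 172 ± 25.8 and 125 ± 4.84, Tnrc6c at 139 ± 36 and 120 ± 2.08, Ago2 at 105 ± 16.7 and 80.0 ± 2.60, and Tnrc6b at 38.8 ± 16.9 and 29.9 ± 1.70, in the 3-library and the 2-library set. In the 3-library set the neighbours Tnrc6a and Tnrc6c, and Tnrc6c and Ago2, overlapped in their libraries, and Tnrc6b lay below the rest. This order depends on which events are listed. Ago2 and Tnrc6b had 1 event each, whereas Cnot10, Tnrc6c and Tnrc6a had 5, 7 and 8 to take the deepest from. Events of the same gene differed too. In Tnrc6a the 141-nt exon had 174 reads per library over a 291-nt form, and the 384-nt exon 93.0 over 534 nt.

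**Figure D3:**
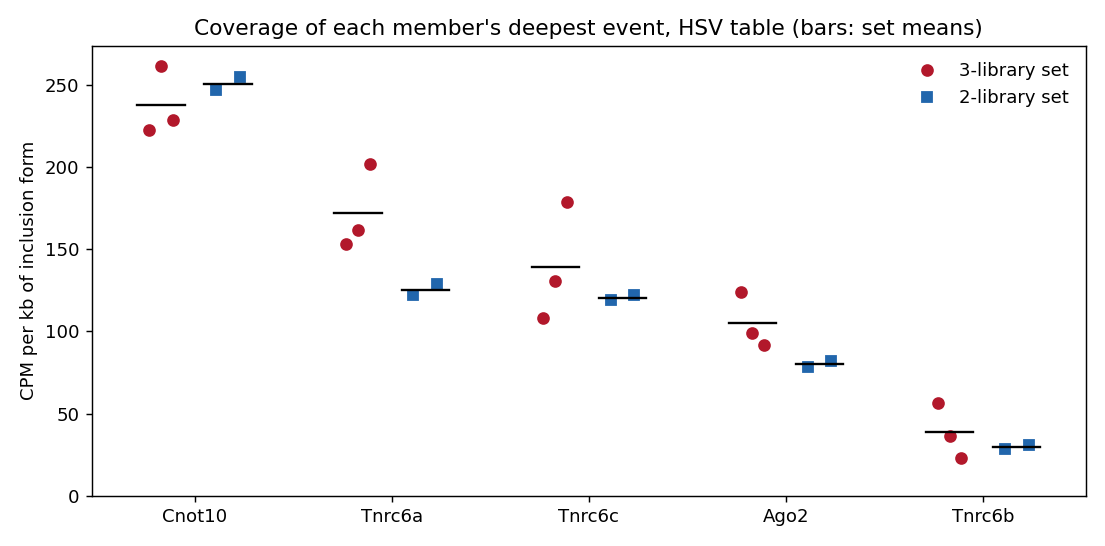
CPM per kb of inclusion form (y axis) over the deepest event of each member gene, per library of the 3-library set (red circles) and of the 2-library set (blue squares), with set means as bars. Tnrc6a and Ago2 have no overlap between the sets, and Tnrc6c, Tnrc6b and Cnot10 do. Of all 8201 genes, 49.8% have no overlap.

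In the dCas9-SET2 table, with 16 runs per set and a median of 4 reads per run and event in the second and 5.5 in the first set, the members had 4 events. Of these, 3 are the same exons as in the HSV table, matched by exon length and the lengths of both flanking introns: the 147-nt and 33-nt exons of Tnrc6a and the 162-nt exon of Cnot10. The coordinates of the 4 exons lay inside the GRCm38 spans of their genes in RefSeq, whereas those of the HSV table mostly did not, so coordinates of the tables were not compared. Runs under a shared sample name are not independent, and the first set held more reads. The runs at positions 4 and 8 had equal totals over all events, 97910 reads in the first set and 65984 in the second. Whether position 8 repeats the run at position 4 was not tested. If it does, the summed reads and the counts of runs below include that run again, and the intervals are too narrow.

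The 147-nt exon of Tnrc6a (chromosome 7, 123180249 to 123180395) had nearly equal levels here. Summed reads gave 0.348 (95% interval 0.281 to 0.422, 98 inclusion and 74 skipping reads) in the second set and 0.328 (0.262 to 0.402, 91 and 75 reads) in the first set. Single runs went from 0.103 to 1 with a median of 0.315 in the second set and from 0 to 1 with a median of 0.318 in the first set. The difference was 0.02 from summed reads and -0.024 as the mean over runs, so its sign depends on the summary, and it is small beside the spread between runs. The levels of this exon in the dCas9-SET2 table lay between the 0.625 and 0.204 from summed reads of the 3-library and the 2-library set of the HSV table, which came from other libraries and were not tested against them.

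The 162-nt exon of Cnot10 (chromosome 9, 114631822 to 114631983) was mostly kept in either set, at 0.84 (0.711 to 0.931, 97 inclusion and 7 skipping reads) in the second and 0.911 (0.822 to 0.966, 162 and 6 reads) in the first. Only inclusion reads were seen in 12 of 16 runs of the second set and in 10 of 16 of the first. Beside these levels stand 0.877 in the 3-library and 0.588 in the 2-library set of the HSV table.

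The 33-nt exon of Tnrc6a (chromosome 7, 123175426 to 123175458) was the member event with an adjusted p-value (padj) below 0.05 in the authors' deposited table, 1 of 4, against 4.96% of the 5287 events with a padj. Its level was 0.942 (0.842 to 0.988, 65 inclusion and 3 skipping reads) in the second set and 0.864 (0.798 to 0.915, 161 and 19 reads) in the first. The intervals overlap. Only inclusion reads were seen in 13 of 16 runs of the second set, whose runs had a median of 2.5 reads, and in 4 of 16 runs of the first set, with a median of 10.5 reads. Of the 68 reads of the second set, 33 came from 3 runs. The call was absent among events with at least 100 summed reads per set and at a padj below 0.01.

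Tnrc6b had a 171-nt exon (chromosome 15, 80890106 to 80890276) in this table, at 0.321 (0.224 to 0.439) in the second and 0.222 (0.144 to 0.325) in the first set, from 71 and 64 reads, with intervals that overlap. Among the 4 member exons of this table it had the lowest inclusion in either set. No event of the HSV table matched it. The authors' deposited dPSI for it was -0.0013, against 0.099 from summed reads. The table does not state the direction of dPSI; it was read as second minus first set, whose sign from summed reads it shared in 74.4% of 5253 events and in 89.3% of the 262 with a padj below 0.05.

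**Figure D4:**
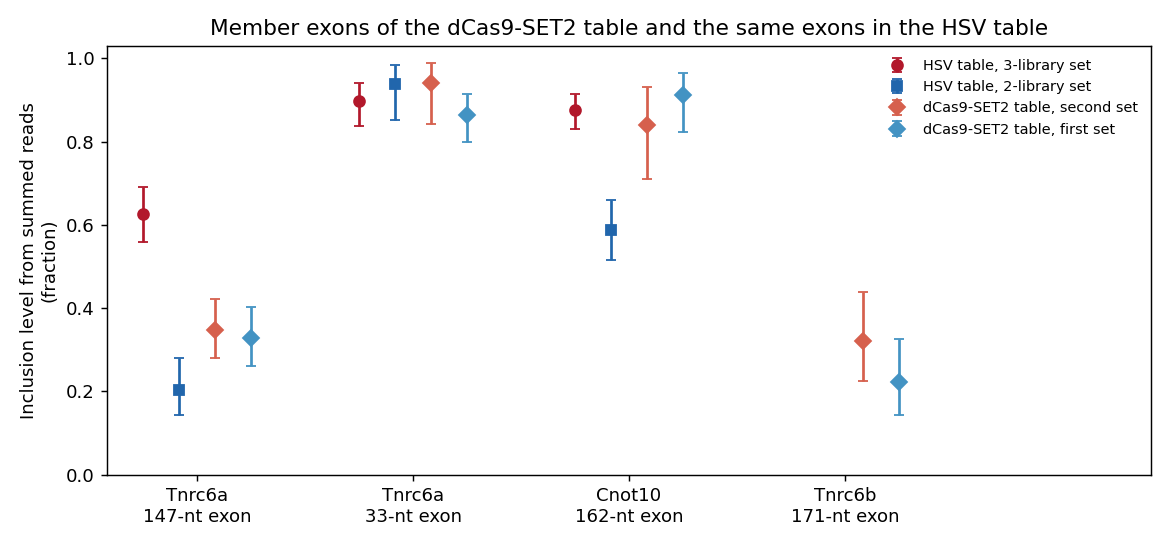
Inclusion level (fraction, y axis) from the summed reads of each set, with 95% exact binomial intervals (bars), for the 4 member exons of the dCas9-SET2 table (diamonds, second set left of first set) and for the 3 of them that the HSV table also lists (circle, 3-library set, and square, 2-library set). The HSV sets differ for the 147-nt exon of Tnrc6a and the 162-nt exon of Cnot10, and the intervals of the dCas9-SET2 sets overlap for each exon.

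The other genes of the pathway were taken from a list of 60, covering microRNA processing, deadenylation, decapping, decay and partner RNA-binding proteins, of which 50 had an event in the HSV table. In limma, 1 of the 27 genes with a tested event (3.70%) had a called event, against 5.82% of all 4194 genes tested. It was Fxr1, an RNA-binding protein of the fragile X family, with 2 called events of the same 81-nt exon (chromosome 3, 33963896 to 33963976) that differ in the downstream exon. With the nearer downstream exon, inclusion fell to 0.235, 0.198 and 0.213 in the 3-library set, against 0.559 and 0.404 in the 2-library set, a difference of -0.266 (limma adjusted p = 0.000112). With the farther one it fell to 0.051, 0.044 and 0.037 in the 3-library set, against 0.143 and 0.127 in the 2-library set (limma adjusted p = 0.0211).

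Neither Fxr1 event had overlapping levels between the sets. The first kept its call without each library in turn, with a highest adjusted p of 0.0431 (limma). The second lost it whichever library was dropped, at 0.165 (library 1) and 0.0629 (library 2) in the 2-library set and 0.0658, 0.0654 and 0.0957 (libraries 1 to 3) in the 3-library set. Dropping the weights gave 0.414 and 0.401 for the 2 events (limma), a setting under which no event of any gene was called. Over the list's 54 tested events the median difference was -0.021, against -0.001 over all tested events, and 7.41% had an unadjusted p below 0.05, against 12.9% of all. The authors' deposited table had an FDR below 0.05 for 6 of the 54 (11.1%), in Fxr1, Pum2 and Xrn1, close to the 12.6% of all tested events.

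In level, 9 of 49 measured list genes were called in the HSV table, 3 higher and 6 lower in the 3-library set, against 13.2% higher and 9.47% lower of all genes. The double-stranded RNA editor Adar, an interferon-inducible gene, rose to 993, 971 and 988 CPM in the 3-library set, against 585 and 584 in the 2-library set (log2 0.75, SE 0.07, limma adjusted p = 1.04e-05). The deadenylase gene Cnot7, for a catalytic subunit of CCR4-NOT, fell to 140, 107 and 110 CPM in the 3-library set, against 228 and 222 in the 2-library set (log2 -0.93, SE 0.13, limma adjusted p = 0.000169). The helicase gene Ddx5 of the microprocessor (log2 -0.54), the P-body protein gene Lsm14b (-0.65) and the poly(A)-binding protein gene Pabpc1 (-0.36) also fell, with adjusted p of 0.000841, 0.000514 and 0.00565 (limma). These 5 kept their calls without each library in turn.

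The other 4 called levels lost their call when any of several single libraries was dropped, with the direction kept each time. The Dicer partner gene Prkra rose by 0.72 on the log2 scale (adjusted p = 0.0194, limma), but 0.0511 (log2 0.70) when library 1 of the 2-library set was dropped, and 0.0671 (0.68) or 0.0885 (0.63) when library 2 or 3 of the 3-library set was. The helicase gene Mov10 rose by 1.11 (0.0272), but 0.116 (log2 0.89) or 0.0581 (1.19) when library 2 or 3 of the 3-library set was dropped. The fragile X gene Fmr1 (log2 -0.61, adjusted p = 0.0312) went to 0.164 (log2 -0.45) when library 2 of the 2-library set was dropped, and to 0.0998 (-0.53) or 0.0839 (-0.58) when library 1 or 2 of the 3-library set was. The CCR4-NOT scaffold gene Cnot1 (log2 -0.43, 0.0453) went to 0.135 (log2 -0.37) when library 2 of the 2-library set was dropped, and to 0.125 (-0.38) or 0.128 (-0.39) when library 2 or 3 of the 3-library set was. Scaling by total reads gave Cnot1 0.0616 (-0.40) and summing all events 0.054 (-0.44).

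Of the 16 list genes in the dCas9-SET2 table, 2 had an event with a padj below 0.05 in the authors' deposited table, against 7.05% of all genes. The 63-nt exon of Fmr1 (chromosome X, 68705861 to 68705923) had an inclusion level of 0.694 (0.595 to 0.783) in the second and 0.542 (0.463 to 0.62) in the first set from summed reads, with the authors' deposited padj at 0.0296 and dPSI at 0.205. In the HSV table the same exon stood at 0.308, 0.216 and 0.186 in the 3-library set, against 0.346 and 0.354 in the 2-library set, and was not called (adjusted p = 0.396, limma). For a 114-nt exon of the decapping factor gene Dcp1a, summed reads gave 0.875 (0.518 to 0.997, 16 reads) in the second and 0.638 (0.463 to 0.799, 48 reads) in the first set, while the authors' deposited dPSI was -0.545 with a padj of 0.0341, the opposite sign under that reading.

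By the root mean square difference of inclusion level over the 5 HSV libraries, the 3 tested events of other genes most like the 147-nt exon of Tnrc6a were 2 events of the Polycomb gene Phc1 (0.0719 and 0.0831) and a 57-nt exon of the potassium channel gene Kcnd3 (0.0805). The Phc1 exons, of 135 and 132 nt, overlap and share a boundary (chromosome 6, 122282540), so reads can count for both. The closer one, of 135 nt, stood at 0.655, 0.563 and 0.721 in the 3-library set, against 0.309 and 0.29 in the 2-library set. The Kcnd3 exon stood at 0.581, 0.655 and 0.559 in the 3-library set, against 0.258 and 0.308 in the 2-library set.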

How the data were processed

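RNA of nucleus accumbens was measured as reads per exon skipping event. The counts, as deposited by the authors, are whole numbers joined by commas in cells without library names, so 5 libraries and 32 runs carry no sample. The submitters' processing notes name STAR 2.4.1d, Bowtie2, mm9 and mm10 with no role. The program behind the events is not stated there. Deposited inclusion levels equalled the form-length formula in 100% of values within 0.001, with a skipping form of 150 nt in the HSV table and 99 nt in the other. The authors' p-values (FDR, padj) and difference scores (dPSI) come from tests not stated per the file headers. In their HSV table the difference score has the opposite direction (2-library minus 3-library set).

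Events with a mean of 20 reads per library and 10 of the rarer form (7754) were fitted as logit inclusion, 0.5 added per count, with weights from reads, in limma 3.58.1 (R 4.3.3), adjusted by Benjamini-Hochberg over all and called at 0.05. This fit shares its spread among all events. Levels were log2 CPM of the deepest event per gene (0.5 added, trimmed-mean scaling, 8201 genes), so differences of low genes are understated. Symbols were matched for 9430 of 9542 and 3433 of 3434 genes. The named genes were all members, list genes with a call, and the 3 events most like the most different member exon. Members and lists were chosen with earlier results of these data known. Alternatives covered weights, spread, added count, filters, scaling, each library left out and the authors' calls. The 48 chromatin samples (CUT&RUN, ChIP, inputs) stayed out. No sequence of an exon is printed, as no genome was used here.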

Additional observations from a re-analysis of the deposited data

How the results depend on the processing

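The difference of each of the 5 fitted member exons, and of the 4 member exons of the dCas9-SET2 table, moved by less than the spread between libraries or the counting interval under each alternative run, but signs were not fixed where differences were small: the 36-nt exon of Cnot10 went to -0.016 when library 2 of the 2-library set was dropped, and in the dCas9-SET2 table the authors' deposited dPSI had the opposite sign for the 162-nt exon of Cnot10 (0.0026), the 147-nt exon of Tnrc6a (-0.0332) and the 171-nt exon of Tnrc6b (-0.0013), read as second minus first set. The HSV difference of the 162-nt exon of Cnot10 kept its sign and was lowest, 0.197, with no length correction. Counts were less stable. Of 286 events called in limma, 2 of members and 1 list gene, no weights left 0, 0 and 0 (limma, with 790 events, 2 of members and 2 list genes at unadjusted p below 0.05), and the authors' deposited FDR gave 974, 3 and 3. Without single libraries the events called numbered 150 to 236, member events 1 to 2, and list genes with a called level 5 to 11 (9 with all libraries). Summing all events of a gene gave 1 member with a called level in place of 0. In the dCas9-SET2 table, events with at least 100 reads per set left 0 of 1 member call and 1 of 2 list genes, and a padj below 0.01 left 0 and 0. The cause was not tested. No paired analysis was possible because the columns of both tables carry no replicate numbers. Depth limits the members: 18 of 23 HSV events had fewer than 10 reads of the rarer form, and an event not called is no sign of equal inclusion.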
